A study of Rattus norvegicus with 59 samples.

Results

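Erythroid marker genes were followed in whole rat kidney as a readout of blood and reticulocyte RNA in the tissue. The 4 genes, Hbb-b1, Alas2, Slc4a1 and Lgals5, were chosen by symbol, and each had 1 probe among the 22523 probes of the Illumina RatRef-12 array, on which 13337 named genes had a probe. The kidneys came from 59 Fawn-Hooded Hypertensive rats, an inbred strain that develops hypertension and kidney damage, with 1 array per rat. At 2 days there were 4 PDTC males, 4 PDTC females, 5 untreated males and 5 untreated females. At 2 weeks there were 4 PDTC males, 6 PDTC females, 6 untreated males and 5 untreated females, and in adulthood, at 36 weeks in males and 42 weeks in females, 5 rats in each of those 4 groups. PDTC is pyrrolidine dithiocarbamate, an inhibitor of the transcription factor NF-kB. It was given at 150 mg/L in the drinking water of the dams, over the last 2 weeks of pregnancy and the first 4 weeks after birth, so the adults had last been exposed as pups, and the dose taken in by a pup was not given. All groups shared the hypertensive strain, no normotensive strain was included, and adult sex cannot be told apart from age in weeks.

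Red cells develop from nucleated erythroblasts that lose their nucleus and enter the blood as reticulocytes, young red cells that still hold RNA. Mature red cells lose that RNA, so reticulocytes left in the vessels are a known source of erythroid transcripts in a tissue that does not make blood. In newborn rodents red cell production still runs outside the bone marrow, in liver and spleen, and reticulocytes are frequent in blood. Hbb-b1 encodes a beta chain of adult hemoglobin. Alas2 encodes the erythroid form of the enzyme that starts heme synthesis. Slc4a1 encodes band 3, the chloride and bicarbonate exchanger of the red cell membrane, and the kidney makes a shorter form of it in acid-secreting intercalated cells of the collecting duct. Lgals5 encodes galectin-5, a sugar-binding protein of rat reticulocytes that is shed on vesicles as these cells mature.

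On assembly GRCr8, Hbb-b1 (probe ILMN_1361935) lies on chromosome 1 from 167636064 to 167643577, and Alas2 (ILMN_1367788) on chromosome X from 22890650 to 22914046. Slc4a1 (ILMN_2040760) lies on chromosome 10 from 87807010 to 87823274, and Lgals5 (ILMN_1360314) on the same chromosome from 64351976 to 64355137. The 250 bases before the start that RefSeq's promoter table gives (GRCr8) are printed for the 3 members that moved together over the ages, Hbb-b1 (chr1:167643521-167643770, minus strand), Alas2 (chrX:22895200-22895449, plus strand) and Lgals5 (chr10:64355138-64355387, minus strand). Beside them stands Lgals9 (chr10:64428071-64428320, minus strand), a galectin gene closely related to Lgals5. For Hbb-b1 and Alas2 that start lies inside the annotated gene. Capitals mark the letters GATAA, the core of the sites of GATA factors, CACCC, the box that the erythroid factor KLF1 reads, and CCAAT, a general promoter box, each on either strand.
Hbb-b1: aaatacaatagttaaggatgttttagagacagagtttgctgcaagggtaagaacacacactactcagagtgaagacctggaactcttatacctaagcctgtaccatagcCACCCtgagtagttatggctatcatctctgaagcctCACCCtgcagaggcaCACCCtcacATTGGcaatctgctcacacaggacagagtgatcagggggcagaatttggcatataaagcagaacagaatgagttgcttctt
Alas2: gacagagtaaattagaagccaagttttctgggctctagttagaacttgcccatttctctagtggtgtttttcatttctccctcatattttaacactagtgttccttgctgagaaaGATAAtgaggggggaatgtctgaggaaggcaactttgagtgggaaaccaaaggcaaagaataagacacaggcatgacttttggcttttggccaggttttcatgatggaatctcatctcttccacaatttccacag
Lgals5: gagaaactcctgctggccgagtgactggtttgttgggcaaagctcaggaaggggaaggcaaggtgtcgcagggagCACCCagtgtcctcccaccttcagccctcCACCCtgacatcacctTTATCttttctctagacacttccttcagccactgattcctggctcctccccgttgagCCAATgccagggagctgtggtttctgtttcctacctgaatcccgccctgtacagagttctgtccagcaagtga
Lgals9: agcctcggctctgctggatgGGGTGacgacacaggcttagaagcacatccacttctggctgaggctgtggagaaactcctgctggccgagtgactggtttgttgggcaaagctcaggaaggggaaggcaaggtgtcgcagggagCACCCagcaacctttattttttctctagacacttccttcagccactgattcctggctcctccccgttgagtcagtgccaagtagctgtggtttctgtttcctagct
The Hbb-b1 window held 3 matches to CACCC, 1 to CCAAT and 0 to GATAA. The Alas2 window held 1 match to GATAA and 0 to the other motifs. Lgals5 held 1 match to GATAA, 2 to CACCC and 1 to CCAAT, while Lgals9 held 2 to CACCC and 0 to the other motifs. Over the best local alignment, 175 of 213 columns (82.2%) were identical between the Lgals5 and Lgals9 windows. Of the 27457 promoter windows in the table, 23.3% held GATAA, 49.4% CACCC and 34.2% CCAAT, so matches of this kind are common. They describe the letters only.

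On each array 9139 to 12488 probes were above background. The median array had 11936 such probes at 2 days, 12121 at 2 weeks and 10188 in adulthood. The kidney markers Nphs1, Umod, Aqp2, Slc34a1, Cubn, Cdh16 and Slc12a3 were above background on all 59 arrays. Pups lay on slides 1 to 6 and adults on slides 7 to 10, except for 2-week untreated male 6 on slide 8, so adults and pups shared only that slide. This male's array stands apart: over 11408 probes its mean correlation with the other 2-week arrays was 0.937, against 0.98 to 0.987 for the other 20. Age results in untreated rats are given with and without it. Litters were not given, so the p-values treat rats as independent. They may be too small if littermates, whose dams received the PDTC, resemble each other. The number of arrays limits the precision. Levels are log2 of background-corrected, quantile-normalized intensity and are compared between arrays for 1 probe, since the brightness of different probes does not measure their relative amounts. A probe was above background at a one-sided p under 0.05 against the array's own background.

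Levels of Hbb-b1 and Lgals5 were highest at 2 weeks, intermediate at 2 days and lowest in adults, in PDTC and in untreated rats alike. Alas2 was also highest at 2 weeks, but adults and 2-day rats cannot be put in order for it. In untreated rats its adult level was bounded only at 5.83, above the 2-day mean of 5.73. Hbb-b1 averaged 13.06 ± 0.20 at 2 days (SD, n = 18), 13.996 ± 0.27 at 2 weeks (n = 21) and 10.35 ± 0.77 in adults (n = 20). Alas2 averaged 5.76 ± 0.47 at 2 days and 7.12 ± 0.46 at 2 weeks, and it was not above background on any of the 20 adult arrays, where its measured mean was 4.68. Lgals5 averaged 8.21 ± 0.32 at 2 days, 10.001 ± 0.32 at 2 weeks and 5.64 ± 0.73 in adults, with 6 of 20 adult arrays above background. Slc4a1 kept another order, at 6.65 ± 0.24, 7.39 ± 0.18 and 7.70 ± 0.47 over the same ages. In whole kidney, fewer cells of a type and less RNA per cell cannot be told apart.

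**Figure D1:**
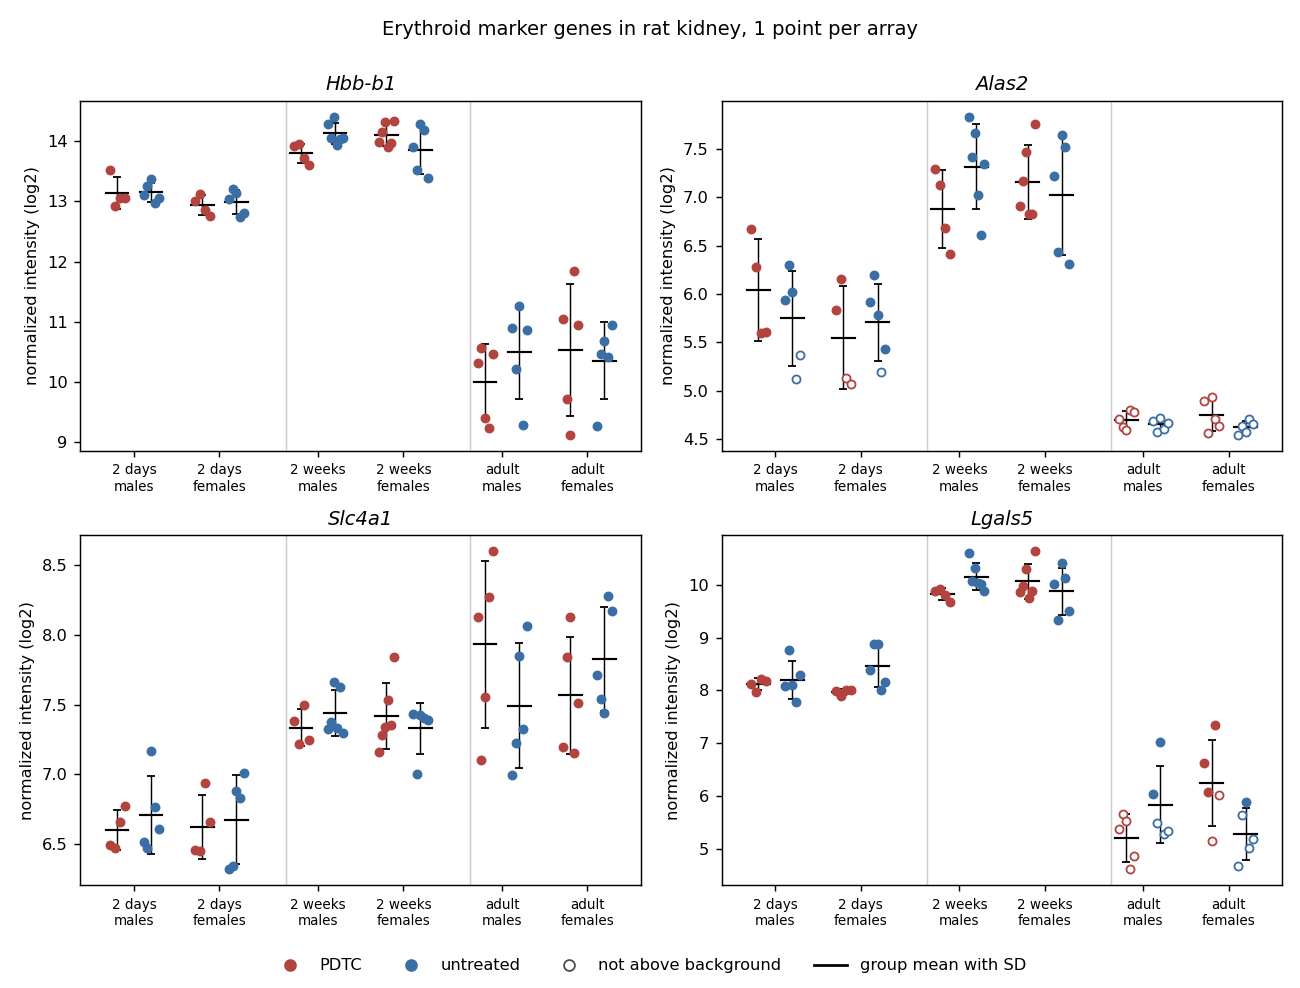
Normalized intensity (log2) of the 4 erythroid marker genes by age and sex, 1 point per array, with PDTC rats in red, untreated rats in blue, open points for arrays on which the probe was not above background, and bars for the group mean with its SD. Hbb-b1, Alas2 and Lgals5 peak at 2 weeks, and Hbb-b1 and Lgals5 are lowest in adults. Alas2 is not above background on any of 20 adult arrays, so its adult level has only a bound. Slc4a1 in adults overlaps its 2-week level, with a higher mean (a lower one, by 0.60 on the log2 scale in untreated rats, when arrays are scaled to 1 median).

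Between 2 days and 2 weeks the 4 genes rose together. In PDTC rats Hbb-b1 lay at 13.60 to 14.33 at 2 weeks (median 13.96, n = 10), against 12.76 to 13.53 at 2 days (median 13.03, n = 8). In untreated rats it lay at 13.39 to 14.41 at 2 weeks (median 14.06, n = 11), against 12.75 to 13.38 at 2 days (median 13.08, n = 10). The 2 ages did not overlap under either treatment. The log2 difference of Hbb-b1 was 0.92 ± 0.093 in PDTC rats (limma log2 ± SE, adjusted p = 4.35e-07), 1.89-fold, and 0.92 ± 0.11 in untreated rats (adjusted p = 5.21e-07), 1.90-fold.

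Alas2 lay at 6.42 to 7.76 in PDTC rats at 2 weeks (median 7.02), against 5.07 to 6.67 at 2 days (median 5.72). In untreated rats it lay at 6.31 to 7.83 at 2 weeks (median 7.34), against 5.12 to 6.30 at 2 days (median 5.85). The ages overlapped in PDTC rats and just failed to meet in untreated rats. All 21 of the 2-week arrays were above background for Alas2, against 13 of the 18 arrays at 2 days. The gene rose by 1.22 ± 0.20 in PDTC rats (adjusted p = 7.64e-05) and by 1.44 ± 0.20 in untreated rats (adjusted p = 5.4e-06).

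Lgals5, the reticulocyte galectin, lay at 9.68 to 10.64 in PDTC rats at 2 weeks (median 9.89), against 7.89 to 8.22 at 2 days (median 8.01). In untreated rats it lay at 9.33 to 10.60 at 2 weeks (median 10.03), against 7.78 to 8.88 at 2 days (median 8.23). The ages were apart under both treatments. Lgals5 rose by 1.90 ± 0.10 in PDTC rats (adjusted p = 8.2e-11), 3.73-fold, and by 1.68 ± 0.15 in untreated rats (adjusted p = 1.43e-08), 3.21-fold. The probe of its relative Lgals9 did not pass the test over this interval, at -0.077 ± 0.095 in PDTC rats and -0.13 ± 0.13 in untreated rats (adjusted p = 0.591 and 0.45).

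Slc4a1, the anion exchanger, lay at 7.16 to 7.84 in PDTC rats at 2 weeks (median 7.34), against 6.45 to 6.94 at 2 days (median 6.57). In untreated rats it lay at 7.0 to 7.66 at 2 weeks (median 7.39), against 6.32 to 7.17 at 2 days (median 6.69), and the ages overlapped there through 1 array at 2 weeks and 2 at 2 days. Slc4a1 rose by 0.76 ± 0.094 in PDTC rats (adjusted p = 4.09e-06) and by 0.69 ± 0.10 in untreated rats (adjusted p = 1.85e-05). Over all probes, 38.4% were called in PDTC rats, 18% as higher at 2 weeks, and 37.8% in untreated rats, 16.9% as higher, and all 4 members were called higher under each treatment. Without 2-week untreated male 6 the untreated rises were 0.93 for Hbb-b1, 1.44 for Alas2, 0.71 for Slc4a1 and 1.71 for Lgals5, and each passed. Each of the 4 genes was higher at 2 weeks on every slide that held both ages, 5 of 5 slides for PDTC rats and 6 of 6 for untreated rats. Within slides the untreated difference spanned 0.76 to 1.09 for Hbb-b1, 1.03 to 2.16 for Alas2, 0.52 to 1.03 for Slc4a1 and 1.2 to 2.29 for Lgals5.

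From 2 weeks to adulthood Hbb-b1, Alas2 and Lgals5 fell, and Slc4a1 did not pass the test. Hbb-b1 lay at 9.12 to 11.85 in adult PDTC rats (median 10.39), against the 13.60 to 14.33 of PDTC rats at 2 weeks. In adult untreated rats it lay at 9.28 to 11.27 (median 10.57), against 13.39 to 14.41 at 2 weeks. No adult reached the level of any 2-week rat, and the adults spread more widely among themselves. The log2 difference of Hbb-b1 was -3.69 ± 0.27 in PDTC rats, a 12.9-fold fall (adjusted p = 2.59e-10), and -3.56 ± 0.22 in untreated rats, an 11.8-fold fall (adjusted p = 6.32e-12).

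Alas2 was detected on 0 of 10 adult PDTC and 0 of 10 adult untreated arrays, so its fall is a lower bound, set by the dimmest probes above background on the adult arrays. It was at least 2.49-fold lower in adult than in 2-week PDTC rats and at least 2.55-fold lower in adult than in 2-week untreated rats. The limma test was of the measured levels, below background in adults, and not of these bounds (adjusted p = 6.05e-12 in PDTC and 1.52e-11 in untreated rats). The measured adult means were 4.73 in PDTC and 4.64 in untreated rats. Against 2 days the bound was 1.05-fold in PDTC rats, and in untreated rats no fold could be given.

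Lgals5 lay at 4.61 to 7.34 in adult PDTC rats (median 5.59), against 9.68 to 10.64 at 2 weeks. In adult untreated rats it lay at 4.67 to 7.02 (median 5.41), against 9.33 to 10.60 at 2 weeks. No adult overlapped a 2-week rat. The measured log2 difference of Lgals5 was -4.22 ± 0.21 in PDTC rats (adjusted p = 8.64e-13) and -4.46 ± 0.20 in untreated rats (adjusted p = 3.95e-14). It was above background on 3 of 10 adult arrays under each treatment, so its direction was measured but no fold is given. Lgals9 was above background on 0 of 20 adult arrays, against 20 of 21 arrays at 2 weeks.

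Slc4a1 lay at 7.10 to 8.60 in adult PDTC rats (median 7.70), against 7.16 to 7.84 at 2 weeks, and at 6.99 to 8.28 in adult untreated rats (median 7.63), against 7.0 to 7.66 at 2 weeks. The ages overlapped under both treatments, and 7 of 10 adults lay above the 2-week mean in each. The difference was 0.37 ± 0.17 in PDTC rats (adjusted p = 0.0544) and 0.28 ± 0.14 in untreated rats (adjusted p = 0.0828), and neither passed. With arrays scaled to 1 median in place of quantile normalization the difference turned to -0.65 in PDTC rats (adjusted p = 0.000717) and -0.60 in untreated rats (adjusted p = 0.00564). That scaling moved the median of all probes to -0.66 in PDTC rats and -0.57 in untreated rats, close to the values of Slc4a1 itself, so its direction depends on how arrays are scaled. Over all alternatives run, its adjusted p spanned 0.000717 to 0.111 in PDTC rats and 0.00564 to 0.873 in untreated rats. The deposited signals of Slc4a1, before any correction, had a median of 197.2 over the 2-day arrays, 298.2 over the 2-week arrays and 136.8 over the adult arrays.

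Of all probes, 67.7% were called between adults and 2 weeks in PDTC rats, 35% as lower and 32.7% as higher, and 64% in untreated rats, 32.3% as lower and 31.7% as higher. Of the 4 members, 3 were called lower and 0 higher under each treatment. On slide 8, which held 2-week untreated male 6 and 2 untreated adults, the adults were lower by 3.98 for Hbb-b1 (means of 10.08 in adults and 14.06 at 2 weeks), and the differences were -2.73 for Alas2, -4.54 for Lgals5 and 0.057 for Slc4a1. Apart from that slide, the slides of adults and pups cannot be told apart from age. Without that male the untreated differences were -3.57 for Hbb-b1, -2.53 for Alas2, -4.49 for Lgals5 and 0.26 for Slc4a1, with the same 3 genes called. Adults lay below 2-day rats too: in PDTC rats the difference was -2.77 ± 0.29 for Hbb-b1 and -2.33 ± 0.22 for Lgals5 (adjusted p = 1.46e-07 and 2.88e-08), and in untreated rats it was -2.64 ± 0.22 and -2.78 ± 0.21 (adjusted p = 1.04e-09 and 3.71e-10). The sizes for Lgals5 rest on the same adult arrays, 3 of 10 above background per treatment. Of all probes, 35.9% were called lower in adult than in 2-day PDTC rats and 36.3% in untreated rats. Adult Slc4a1 was higher than at 2 days by 1.14 ± 0.18 in PDTC rats (adjusted p = 2.19e-05) and 0.97 ± 0.16 in untreated rats (adjusted p = 1.4e-05). With arrays scaled to 1 median these differences were 0.17 and 0.14 and did not pass (adjusted p = 0.379 and 0.468).

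Set against Hbb-b1 on the same array, Slc4a1 took another course, as their separate levels already show. The log2 level of Slc4a1 minus that of Hbb-b1 averaged -2.52 ± 1.26 in adult PDTC rats and -6.60 ± 0.25 in PDTC rats at 2 weeks (SD, n = 10 each). In untreated rats it averaged -2.77 ± 0.71 in adults (n = 10) and -6.62 ± 0.27 at 2 weeks (n = 11). The difference describes unequal change between the 2 probes and was chosen after the values had been seen.

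The globins Hbb and Hba-a1 followed Hbb-b1 into adulthood. Hba-a1 encodes an alpha chain and Hbb a second beta chain of hemoglobin, and near-identical globin transcripts can bind one another's probes. Of 8 globin and myoglobin genes on the array beside Hbb-b1, 3 were tested in untreated rats, and Hbb and Hba-a1 fell from 2 weeks to adulthood, with differences of -3.27 ± 0.19 and -3.13 ± 0.17. The third, Hba-a2, did not fall, with means of 4.99 at 2 weeks and 5.33 in adults over both treatments. It lay near background, above it on 3 arrays at 2 weeks and 2 in adults. With arrays scaled to 1 median, 1 of the 3 was called higher and 2 lower. From 2 days to 2 weeks Hbb and Hba-a1 rose by 0.45 ± 0.11 and 0.39 ± 0.10 in untreated rats (adjusted p = 0.00188 and 0.00412), and neither rise passed with arrays scaled to 1 median. Hba-a1 was the brightest probe on 4 of 21 arrays at 2 weeks, at the top of the quantile scale, where a rise cannot be followed further. The embryonic globin genes Hbe1 and Hbe2 were above background on 0 of 59 arrays, and Hbg1 on 4.

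Reticulocyte and maturation genes showed a mixed picture at 2 weeks and a more even one in adults. Of 14 tested in untreated rats, with Lgals5 left out, 5 rose and 1 fell between 2 days and 2 weeks (median 0.035, against -0.011 over all probes). Over all probes of untreated rats 16.9% rose and 20.9% fell in that interval. From 2 weeks to adulthood 31.7% of all probes rose and 32.3% fell. The counts of this list and of those below are to be read beside these shares. Ahsp, the chaperone that holds free alpha globin, rose by 0.82 ± 0.14 and Tfrc, the transferrin receptor, by 0.72 ± 0.13. Gclc, an enzyme of glutathione synthesis, rose by 1.13 ± 0.058 and Mkrn1 by 0.53 ± 0.069, and both are made in other cell types too. From 2 weeks to adulthood 8 fell and 1 rose (median -0.49, against 0.0027 over all probes). Among them the difference was -4.15 ± 0.18 for Ahsp, -3.02 ± 0.19 for Tfrc and -0.85 ± 0.11 for the mitochondrial clearance factor Bnip3l, and Tfr2, a second transferrin receptor, rose by 1.05 ± 0.19. Ahsp was above background on 4 of 20 adult arrays and Tfrc on 5, so the sizes of both differences rest mostly on values below background. With arrays scaled to 1 median 11 were lower and 1 higher, with a list median of -1 against -0.574 over all probes.

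Among 12 tested genes of the red cell membrane and skeleton, 7 rose and 0 fell between 2 days and 2 weeks in untreated rats (median 0.38). Rhd, an Rh blood group protein, rose by 1.38 ± 0.20 and Add2, a spectrin partner, by 1.05 ± 0.18, with 7 and 1 of the 18 arrays at 2 days above background. Tmod1, which caps actin, was not above background on any untreated array at 2 days and was at least 1.67-fold higher at 2 weeks. Aqp1 rose by 1.08 ± 0.080, and this water channel is also abundant in proximal tubule. From 2 weeks to adulthood 6 fell and 4 rose (median -0.42), where 32.3% of all probes fell and 31.7% rose. Rhd was above background on 0 of 20 adult arrays and at least 1.65-fold lower in untreated adults than in untreated rats at 2 weeks. The urea transporter Slc14a1 was at least 1.58-fold lower there. Bsg rose by 1.08 ± 0.16 and is made in many tissues. Epb42, listed as a red cell lineage marker, also had a higher mean in adults, 6.81 against 5.86 at 2 weeks over both treatments. It was above background on 20 adult arrays and 21 arrays at 2 weeks. With arrays scaled to 1 median the adult count was 7 lower and 1 higher, with a list median of -0.937 against -0.574 over all probes.

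**Figure D2:**
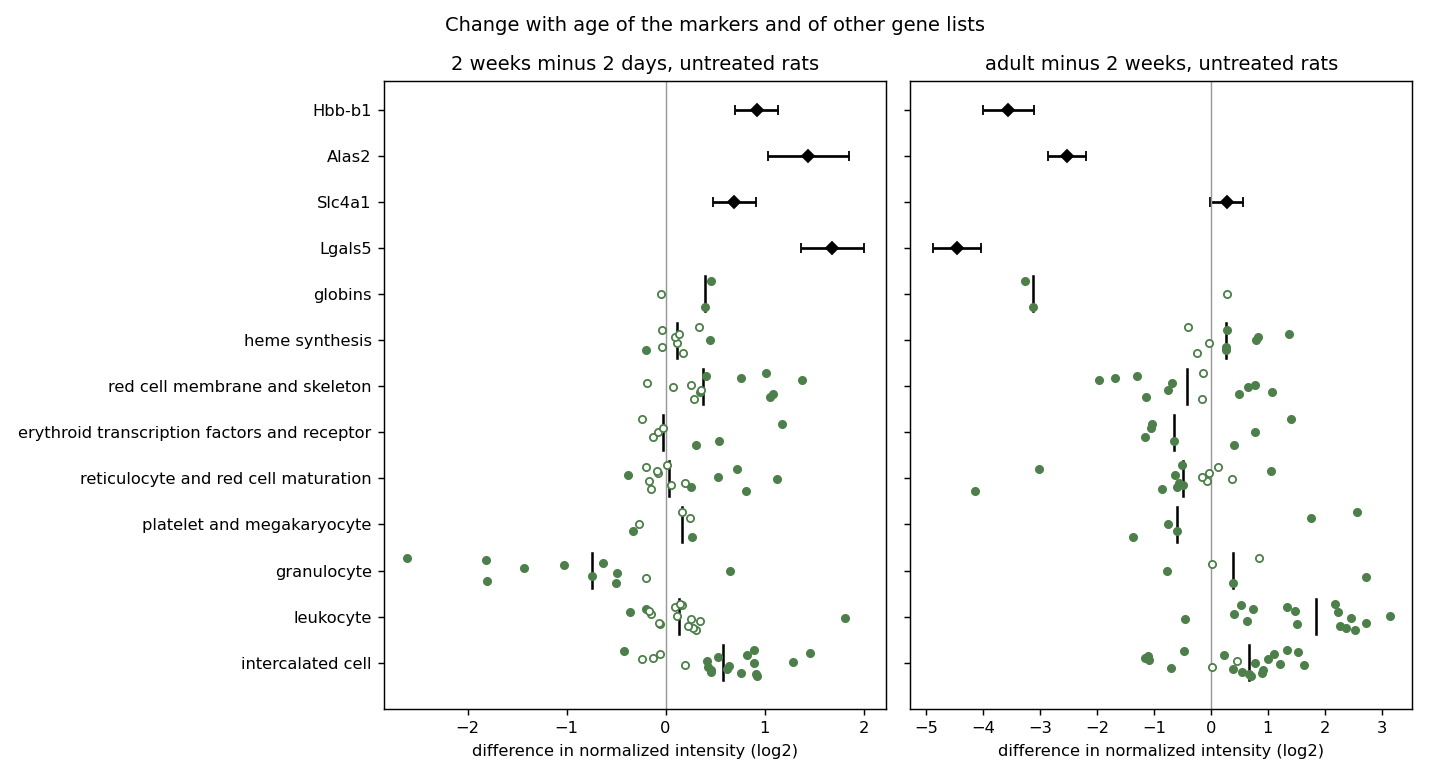
Difference in normalized intensity (log2) of untreated rats between 2 weeks and 2 days (left) and between adults and 2 weeks (right), for the 4 members (diamonds with 95% confidence interval) and for other gene lists (1 point per tested gene, filled where it passed the test, with a line at the list median). Hbb-b1, Alas2 and Lgals5 rise by 0.92 to 1.68 and are then lower, at -2.53 to -4.46. The adult Alas2 point is a measured mean below background, and adult Lgals5 was above background on 3 of 10 of these arrays. Slc4a1 rises by 0.69 and does not pass the test in adults (0.28, or -0.60 with arrays scaled to 1 median). Intercalated cell genes have medians of 0.58 on the left and 0.67 on the right. Under that scaling the right median is -0.12, against -0.574 over all probes.

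Most heme synthesis genes other than Alas2 did not share its rise by 2 weeks, and the sign of their adult differences depended on the scaling. Apart from Alas2 the pathway serves every cell. Of 9 tested in untreated rats, 1 rose and 1 fell between 2 days and 2 weeks (median 0.12), and 6 rose and 0 fell from 2 weeks to adulthood (median 0.27). With arrays scaled to 1 median the adult count turned to 1 higher and 5 lower. That scaling moved all probes down, and the list median was -0.433 against -0.574 over all probes. Under both scalings the list median lay above that of all probes. Slc25a38, which brings glycine into mitochondria for heme, rose by 1.37 ± 0.17 into adulthood, and Fech, the last enzyme of the pathway, rose by 0.45 ± 0.11 by 2 weeks and by a further 0.80 ± 0.13 into adulthood. Under the other scaling the adult difference of Fech was -0.092. Of 13 tested genes of iron and heme handling, 6 rose and 2 fell by 2 weeks, among them Tf, transferrin, up by 0.75 ± 0.094, and Hmox1, which breaks down heme, at -1.5 ± 0.27. From 2 weeks to adulthood 4 rose and 2 fell, among them the plasma protein gene Hrg at 2.76 ± 0.17 and the ferroxidase gene Cp at 3.22 ± 0.22. Over all probes 31.7% rose and 32.3% fell, so the number of risers does not set this list apart.

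Transcription factors that define erythroblasts were not detected. Gata1, Klf1, Nfe2 and Gfi1b were above background on 0 of 59 arrays, as was Rhag, the Rh-associated membrane protein. Epor, the erythropoietin receptor, was above background on 3 of 18 arrays at 2 days, 3 of 21 at 2 weeks and 0 of 20 in adults. A probe below background has only a bound, so low expression of these genes cannot be told from none. Of 7 tested factors and receptors, 3 rose and 0 fell by 2 weeks, and they were Sox6 at 1.18 ± 0.19, Hemgn at 0.54 ± 0.12 and Cited2 at 0.31 ± 0.096 (Cited2 did not pass with arrays scaled to 1 median). In adults 3 were higher and 4 lower than at 2 weeks, with Tal1 at 1.41 ± 0.19, Ldb1 at 0.78 ± 0.15 (-0.098 with arrays scaled to 1 median), Kit at -1.15 ± 0.24 and Lyl1 at -1.05 ± 0.26. Several of these, such as Kit and Tal1, are also active in endothelial, mast or tubule cells.

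Intercalated cells, whose acid-secreting kind is the renal source of Slc4a1, had many markers that were higher at 2 weeks than at 2 days. The sign of their adult differences depended on the scaling. The list was not split by kind of intercalated cell, so its counts do not give the course of the acid-secreting cells. Of 20 tested in untreated rats, 15 rose and 1 fell between 2 days and 2 weeks (median 0.58). Slc26a4, the bicarbonate exchanger pendrin, rose by 1.46 ± 0.13, the exchanger Slc4a9 by 0.90 ± 0.080, the transcription factor Hmx2 by 1.29 ± 0.11 and the proton pump subunit Atp6v0d2 by 0.91 ± 0.085. From 2 weeks to adulthood 14 of 21 rose and 5 fell (median 0.67, or -0.12 with 4 higher and 6 lower when arrays were scaled to 1 median). The median of all probes was 0.0027, or -0.574 under that scaling, so the list median lay above it both times. Slc26a4 rose by 1.53 ± 0.14 and Slc4a9 by 1.34 ± 0.093, and Foxi1, which specifies these cells, by 1.22 ± 0.15 (0.30 and not called under that scaling). The members of the list that fell were Kit, Jag1, Oxgr1, Slc26a7 and Car12. The share of the Slc4a1 signal that comes from red cells or from intercalated cells was not tested, and the probe does not tell their transcripts apart.

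Granulocyte genes by 2 weeks and leukocyte genes into adulthood moved differently from Hbb-b1, Alas2 and Lgals5, and platelet genes were mixed. Of 11 tested granulocyte genes, 9 fell and 1 rose between 2 days and 2 weeks in untreated rats (median -0.74), led by S100a8 at -2.61 ± 0.17, with the neutrophil granule genes RatNP-3b at least 2.16-fold and Ngp at least 1.74-fold lower at 2 weeks than at 2 days. Of 16 leukocyte genes, 1 rose and 2 fell by 2 weeks, the riser being Cd74, the invariant chain, at 1.81 ± 0.13. From 2 weeks to adulthood 15 of 16 leukocyte genes rose and 1 fell (median 1.84), among them Cd3g of T cells at 2.72 ± 0.14 and Cd74 at 3.14 ± 0.18. Scaling arrays to 1 median left 13 higher and 1 lower. Of 5 platelet and megakaryocyte genes tested, Vwf, made by endothelium as well, rose into adulthood by 2.57 ± 0.16 and Pf4 fell by 0.76 ± 0.24. Gng11 also had a lower mean in adults, 9.57 against 10.88 at 2 weeks over both treatments. With arrays scaled to 1 median, 2 of the 5 were called higher and 3 lower in untreated adults than at 2 weeks. The platelet genes Gp9 and Treml1 were above background on 0 of 59 arrays.

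Summed deposited signals, without normalization, were lower for globins in adults than in pups. Over the 8 other globin and myoglobin probes the median sum in PDTC rats was 67680 at 2 days, 70340 at 2 weeks and 3584 in adulthood, and in untreated rats it was 60350, 65410 and 4495 at those ages. The highest adult sum was 9343 in PDTC rats, below the lowest sum at 2 days, 39710 in an untreated rat, while the 2-day and 2-week sums overlapped. Over the 18 leukocyte probes the medians were 4072, 4514 and 6343 in PDTC rats and 3407, 4339 and 5829 in untreated rats. Sums over other lists were also lower in adult than in 2-week PDTC rats, with medians of 4994 and 9891 for heme synthesis and 69430 and 90500 for kidney identity genes. The part of array brightness and of blood retained in the tissue in these differences was not tested.

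At 2 weeks, rats that were high for 1 of Hbb-b1, Alas2 and Lgals5 tended to be high for the other 2. After subtracting group means, Hbb-b1 and Alas2 correlated over the 21 arrays at 2 weeks with Pearson's r = 0.915 (permutation p = 1e-05, the smallest these permutations can give, adjusted p = 6e-05 over 18 correlations) and Spearman's rho = 0.94 (p = 1e-05, adjusted p = 0.00012). Hbb-b1 and Lgals5 gave r = 0.889 (permutation p = 1e-05, adjusted p = 6e-05) and rho = 0.919 (p = 2e-05, adjusted p = 0.00012). Alas2 and Lgals5 gave r = 0.876 (permutation p = 1e-05, adjusted p = 6e-05) and rho = 0.901 (p = 2e-05, adjusted p = 0.00012). Without the 2 arrays farthest from the median these were 0.901, 0.864 and 0.901, and with slide means subtracted as well they were 0.921, 0.918 and 0.946. At 2 weeks the lowest Hbb-b1 levels, 13.39 and 13.51, came from untreated females 5 and 2, which also had the lowest Lgals5 levels of all 2-week rats, 9.50 and 9.33.

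At 2 days Hbb-b1 and Alas2 gave r = 0.794 over 18 arrays (permutation p = 0.00042, adjusted p = 0.00189) and rho = 0.783 (p = 0.00098, adjusted p = 0.00441), with r = 0.766 without the 2 farthest arrays and 0.798 with slide means subtracted. Hbb-b1 and Lgals5 did not pass there (r = 0.494, permutation p = 0.0456, adjusted p = 0.0912; rho = 0.43, p = 0.116). In adults Hbb-b1 and Lgals5 gave r = 0.735 over 20 arrays (permutation p = 0.00203, adjusted p = 0.00731) and rho = 0.699 (p = 0.00237, adjusted p = 0.00853), with r = 0.637 without the 2 farthest arrays and 0.935 with slide means subtracted. Only 6 of those arrays were above background for Lgals5, and among them were the adults with the 2 highest Hbb-b1 levels, PDTC female 4 (Hbb-b1 at 11.85, Lgals5 at 7.34) and untreated male 3 (11.27 and 7.02). Alas2 was below background on every adult array, and its adult correlations are not described.

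Slc4a1 was not called with any other member at any age, and its correlations had both signs. Its r with Hbb-b1 was -0.238 at 2 days (permutation p = 0.355), 0.375 at 2 weeks (p = 0.122) and -0.187 in adults (p = 0.451), with rho of -0.269 (p = 0.329), 0.296 (p = 0.223) and -0.177 (p = 0.48). Without the 2 farthest arrays r was -0.514, 0.35 and -0.106. With Alas2 its r was -0.529 at 2 days (permutation p = 0.0338, adjusted p = 0.0912; rho = -0.521, p = 0.0332, adjusted p = 0.0853; -0.524 without the 2 farthest arrays) and 0.294 at 2 weeks (permutation p = 0.233; rho = 0.208, p = 0.401). With Lgals5 its r was -0.309 at 2 days (permutation p = 0.323; rho = -0.197, p = 0.516) and 0.501 at 2 weeks (permutation p = 0.0438, adjusted p = 0.0912; rho = 0.406, p = 0.0949). In adults its r with Lgals5 was -0.489 (permutation p = 0.038, adjusted p = 0.0912; rho = -0.567, p = 0.0177, adjusted p = 0.053; -0.45 without the 2 farthest arrays). With slide means subtracted as well, r at 2 weeks was 0.689 with Hbb-b1, 0.761 with Alas2 and 0.691 with Lgals5, and these passed (adjusted p = 0.0229, 0.00588 and 0.0229). With slide means subtracted, Slc4a1 and Hbb-b1 gave 0.189 at 2 days and -0.405 in adults and did not pass.

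**Figure D3:**
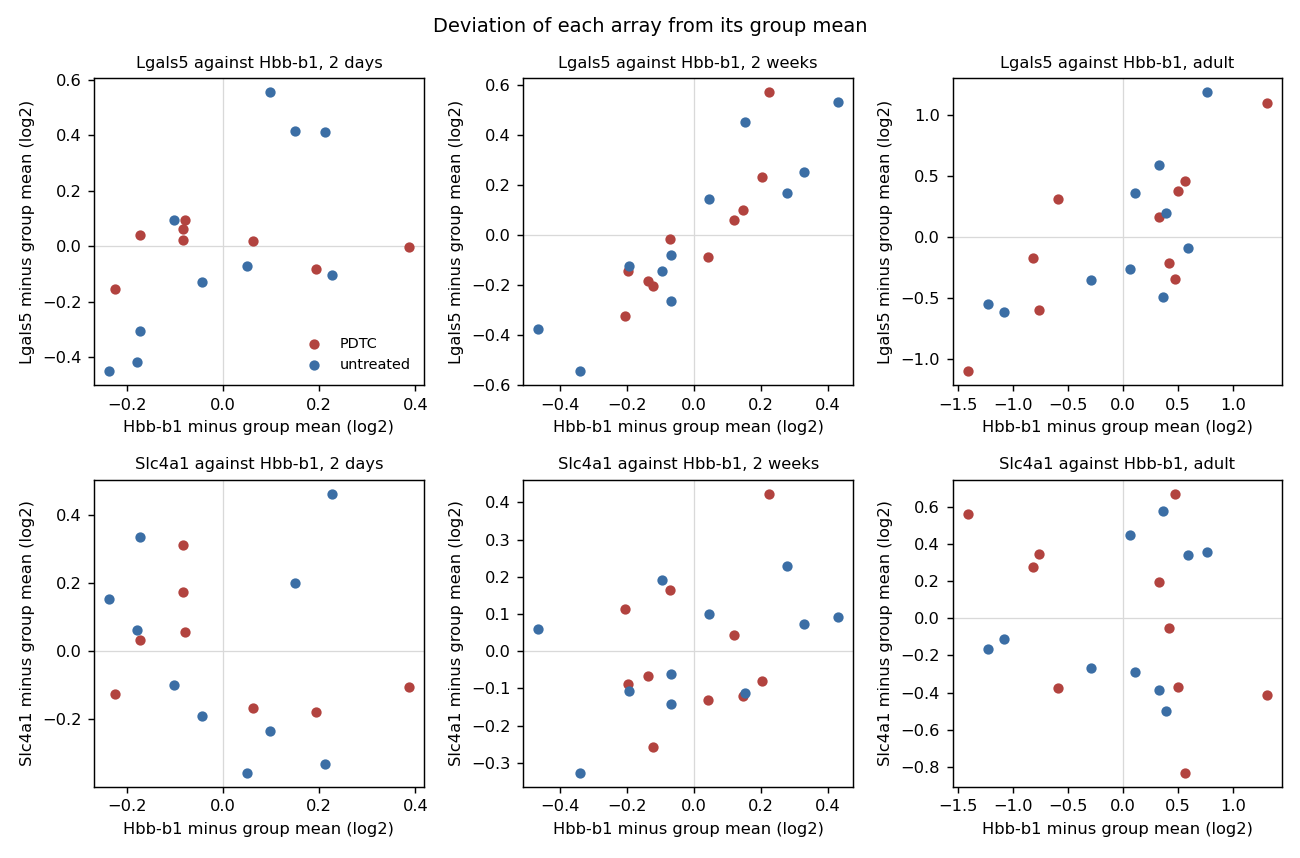
Deviation of each array from its group mean (log2) for Lgals5 (top) and Slc4a1 (bottom) against Hbb-b1 at each age, with PDTC rats in red and untreated rats in blue. Lgals5 follows Hbb-b1 at 2 weeks (r = 0.889) and in adults (r = 0.735), while r for Slc4a1 is -0.238 (2 days), 0.375 (2 weeks) and -0.187 (adult).

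Genes most like each member were ranked by Pearson's r among 8191 named genes over 59 arrays after subtracting the 12 group means. For Hbb-b1 they were Hbb (0.911), Hba-a1 (0.827), Lgals5 (0.718), Ahsp (0.665) and Tmem138 (0.661). For Lgals5 they were Ahsp (0.723), Hbb-b1 (0.718), Kif23 (0.658), Hba-a1 (0.651) and Ctf1 (0.613). For Alas2 they were Sema3d (0.637), Alox15 (0.611), Ap4m1 (0.594), Dimt1 (0.57) and Ccnj (0.535). For Slc4a1 they were Slc25a30 (0.799), Chuk (0.792), Mtmr3 (0.77), Mmgt1 (0.731) and Mtmr10 (0.73). No globin stood on the lists of Alas2 and Slc4a1. These arrays share slides and a normalization, and the values describe likeness only.

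Over the 12 group means the likest genes were, for Hbb-b1, Crip2 (0.996), Ahsp (0.996), Serpinb9 (0.995), Nmbr (0.993) and Ndp (0.992). For Lgals5 they were Slc31a2 (0.995), Smtn (0.987), Fbln5 (0.987), Slc14a2 (0.987) and Alox15 (0.986). For Alas2 they were Alox15 (0.992), Mmp9 (0.986), Cd81 (0.986), Slc14a2 (0.983) and Pgf (0.983). For Slc4a1 they were Asrgl1 (0.987), Lnx1 (0.981), Sdhc (0.98), P3h2 (0.979) and Fmo2 (0.979). Alox15, an arachidonate lipoxygenase that takes part in clearing mitochondria from maturing reticulocytes, stood on the lists of Alas2 and Lgals5. Since all 12 means are ordered by age, many genes reach such values.

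Whether PDTC changed the erythroid genes was asked at each age. No member was called in any comparison of PDTC with untreated rats by limma, and 0% of all probes were. In both sexes together, 2085 of 13163 probes at 2 days, 697 of 13360 at 2 weeks and 668 of 11701 in adults had an unadjusted p under 0.05. At 2 days Hbb-b1 averaged 13.04 ± 0.23 in PDTC pups (n = 8) and 13.07 ± 0.19 in untreated pups (n = 10), and the 95% confidence interval of the difference was -0.23 to 0.17. Alas2 averaged 5.80 ± 0.56 and Slc4a1 6.61 ± 0.18 in PDTC pups, against 5.73 ± 0.42 and 6.69 ± 0.29 in untreated pups. These intervals were -0.37 to 0.51 for Alas2 and -0.33 to 0.17 for Slc4a1.

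Lgals5 stood a little lower in PDTC pups at 2 days. It lay at 8.12, 7.97, 8.22 and 8.19 in PDTC males and at 7.99, 7.89, 8.0 and 8.02 in PDTC females. It lay at 8.07, 8.76, 8.10, 7.78 and 8.30 in untreated males and at 8.39, 8.88, 8.88, 8.01 and 8.16 in untreated females. All 8 PDTC pups lay below the untreated mean and in a narrow band, and the groups overlapped. The difference was -0.28 ± 0.13 in both sexes (unadjusted p = 0.0449, adjusted p = 0.301 by limma) and -0.49 ± 0.19 in females (unadjusted p = 0.0171, adjusted p = 0.654), and neither passed. Within slides it was lower in PDTC pups on 4 of 5 slides that held both treatments. In females it was lower on 2 of 2 slides, and in males it was higher on 2 of 3. Over the alternatives run the difference in both sexes spanned -0.36 to -0.066, the last with arrays scaled to 1 median. The granulocyte list lay the same way, with 11 of 11 tested genes lower in PDTC pups and 0 called (median -0.29, against -0.016 over all probes), and its part in the result was not tested.

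At 2 weeks the sexes lay on opposite sides of their untreated groups. Hbb-b1 lay at 13.92, 13.95, 13.73 and 13.60 in PDTC males, against 13.94 to 14.41 in the 6 untreated males (median 14.06). It lay at 13.91 to 14.33 in the 6 PDTC females (median 14.07), against 13.90, 13.51, 14.28, 14.18 and 13.39 in untreated females. All 4 PDTC males were below the untreated male mean and all 6 PDTC females above the untreated female mean, with overlap in both sexes. The difference was -0.33 ± 0.16 in males (unadjusted p = 0.0456, adjusted p = 0.906) and 0.26 ± 0.15 in females (adjusted p = 0.999). The difference between the sexes was 0.59 ± 0.21 (95% confidence interval 0.14 to 1.03, unadjusted p = 0.0118, adjusted p = 1 over all probes by limma).

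Alas2 and Lgals5 lay the same way at 2 weeks without passing. In males the differences were -0.44 ± 0.28 for Alas2 and -0.33 ± 0.20 for Lgals5, with 4 of 4 PDTC males below the untreated mean for each. In females they were 0.13 ± 0.26 and 0.19 ± 0.18. On each of the 3 slides that held males of both treatments, the 4 members were lower in PDTC males, although Slc4a1 in males turned to 0.19 over all when arrays were scaled to 1 median. In females the sign differed between slides for each member. For Slc4a1 the differences were -0.10 ± 0.13 in males and 0.085 ± 0.12 in females. Of 15 tested leukocyte genes, 13 were lower and 2 higher in PDTC males (median -0.22), 9 were lower and 6 higher in PDTC females (median -0.067), and 0 were called. Their part in these differences was not tested.

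**Figure D4:**
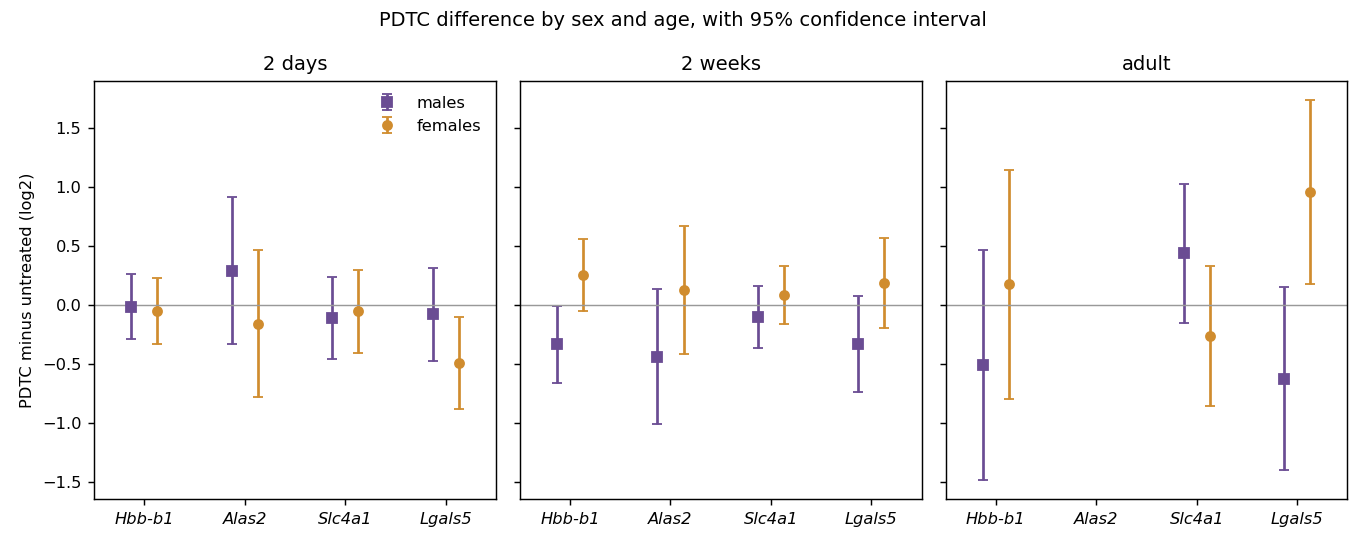
Difference between PDTC and untreated rats (log2, with 95% confidence interval) for each member at each age, males as squares and females as circles; Alas2 was not tested in adults. No difference passed the test, the intervals of Hbb-b1, Slc4a1 and Lgals5 are wider in adults than at the younger ages, and the intervals that leave out 0 are those of Lgals5 in females at 2 days and in adults and of Hbb-b1 in males at 2 weeks.

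In adults, long after exposure, Hbb-b1 averaged 10.27 ± 0.89 in PDTC rats and 10.43 ± 0.68 in untreated rats (n = 10 each, interval of the difference -0.85 to 0.52). Slc4a1 averaged 7.75 ± 0.52 in PDTC rats and 7.66 ± 0.43 in untreated rats (interval -0.33 to 0.51). Lgals5 lay at 5.38, 5.67, 5.52, 4.61 and 4.86 in PDTC males, with 0 of 5 above background, against 6.03, 5.48, 7.02, 5.28 and 5.34 in untreated males, with 2 of 5 above it. It lay at 6.62, 6.07, 5.14, 7.34 and 6.03 in PDTC females, with 3 of 5 above background, against 4.67, 5.64, 5.88, 5.02 and 5.19 in untreated females, with 1 of 5 above it. Lgals5 did not pass in males (adjusted p = 0.649). In females the measured difference was 0.96 ± 0.37 (unadjusted p = 0.018, adjusted p = 0.798) and did not pass either, and it rests mostly on values below background. The leukocyte list had 14 of 15 tested genes lower in PDTC males (median -0.41) and 12 of 15 higher in PDTC females (median 0.37), with 0 called, and its part in the Lgals5 values was not tested.

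The sex difference of the PDTC effect on adult Lgals5 was 1.59 ± 0.53 (unadjusted p = 0.00692, adjusted p = 0.63), and among the alternatives run it passed only when all 59 arrays shared 1 fit (adjusted p = 0.0244, range 0.0244 to 0.999). Most of these adult values are below background, where the measured level carries little information. Within slides Lgals5 was lower in PDTC males on 4 of 4 slides and higher in PDTC females on 4 of 4. Adult Hbb-b1 was also lower in PDTC males on 4 of 4 slides. It did not follow Lgals5 in females, where the within-slide difference was above 0 on 2 of 4 slides. The age difference of the PDTC effect was also not called for any member, at -0.0063 ± 0.15 for Hbb-b1 and 0.21 ± 0.19 for Lgals5 between 2 weeks and 2 days, and at -0.13 ± 0.35 and 0.24 ± 0.30 between adulthood and 2 weeks.

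Sex alone did not separate the members in untreated rats. Females minus males gave -0.17 ± 0.12 at 2 days, -0.28 ± 0.15 at 2 weeks and -0.15 ± 0.47 in adults for Hbb-b1, and 0.26 ± 0.18, -0.28 ± 0.18 and -0.55 ± 0.37 for Lgals5. Of all probes, 0% were called at 2 days and at 2 weeks and 1.34% in adults (0.744% as higher in females), and 0 members were among them.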

How the data were processed

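RNA of 59 kidneys was measured with 1 array each; groups came from the labels and slides from the column names. The deposited table holds mean intensity per probe and array, not normalized. Per the file headers it also holds detection p-values, which from their values are two-sided. The deposited value table holds log2 values of unstated normalization whose ranks equal those of the signals (column medians 6.70 to 6.71). Which scanner software was used, and whether it had treated background, is not stated in the labels or headers.

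Because one-sided detection p-values are needed for the planned correction (neqc), it was adapted: background was set at the median over the 50 probes of highest p-value, and its SD was mirrored from lower signals. After normexp, 16 was added, arrays were quantile-normalized and log2 was taken. Column medians of the signals were 67.8 to 202.7 and background levels 59.9 to 136.6. Probes above background on at least 4 arrays of a fit were tested with limma 3.58.1 in R 4.3.3 (lmFit and eBayes on group means, Benjamini-Hochberg over all probes tested, threshold 0.05). Correlations used 100000 permutations of arrays within groups. Steps were tested on simulated data. The platform annotation gave 13793 probes 1 symbol and 8730 none. Of those symbols, 13752 matched GRCr8 by gene ID. Of the 4 members, 3 matched the promoter table.

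Members, gene lists and tests were chosen with earlier results of these data known. All 4 members were named with values per array. Beside them stand the 5 genes most like each member and, from each list, up to 4 genes with the smallest p per age comparison of untreated rats, with members left out of the lists, plus defining markers of cell types. The 5 intercalated cell genes that fell were named after their values were seen. Alternatives were no background correction, arrays scaled to 1 median, the deposited log2 values, no filter, array weights, slide (fixed or as a random block), 1 fit of all 59 arrays and leaving out each array.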

Additional observations from a re-analysis of the deposited data

Results flagged for a closer look

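Slc4a1 in 2-week untreated female 2 lay at 7.0, below the other 4 untreated females of that age at 7.39 to 7.43, a gap that exceeded Dixon's limit for 5 samples. This was 1 of 44 groups of a member examined, and chance gives such a gap in about 1 in 20. The same rat had the lowest Lgals5 level of its age, 9.33.

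The PDTC difference of Hbb-b1 at 2 weeks was 0.59 higher in females than in males (log2, interaction term, unadjusted p = 0.0118, adjusted p = 1), with 6 of 6 PDTC females above and 4 of 4 PDTC males below their untreated means.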

How the results depend on the processing

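Across all alternatives, 588 summary values kept their side of the threshold and 2 moved, and of the values of single members 2177 stayed, 2 were weaker, 15 stronger and 93 turned sign. The values that turned were differences and correlations that had not passed, and calls changed for Slc4a1 and, in 1 fit of all arrays, for Lgals5. The cause was not tested. No paired analysis was possible because replicate numbers follow accession order only and pair no rats.

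With arrays scaled to 1 median, the all-probe median moved by 0.124 at 2 days and 0.134 at 2 weeks in PDTC against untreated rats. PDTC differences then turned at 2 days in both sexes to 0.0676 for Hbb-b1 and 0.114 for Slc4a1, in males to 0.118, 0.0591 and (Lgals5) 0.117, and in females to 0.0169 and 0.169. At 2 weeks they turned to 0.0437 for Alas2, 0.2 for Slc4a1 and 0.0967 for Lgals5, and in males to 0.187 for Slc4a1. Slc4a1 in adults against 2 weeks turned to -0.651 (PDTC) and -0.597 (untreated), and the adult minus 2-week PDTC effect to -0.0539 for Slc4a1 and -0.0473 for Lgals5. Slide as a fixed term turned Alas2 at 2 days to -0.0162 and the 2-week minus 2-day effect on Hbb-b1 to 0.0142 (0.013 as a random block). Array weights turned 2-day females to 0.0182 for Hbb-b1 and 0.05 for Alas2, the 2-day sex difference of the effect to 0.107 for Hbb-b1 and -0.0217 for Slc4a1, and 2-day untreated females minus males to 0.00549 for Slc4a1. Subtracting slide means turned 2-day correlations of Slc4a1 to 0.189 (Hbb-b1) and 0.531 (Alas2), and 8 correlations passed in place of 5. With 1 fit of all 59 arrays, 1 member (Lgals5) was called in the adult sex difference of the PDTC effect.

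Leaving out 1 array gave these ranges where a sign turned. PDTC differences at 2 days spanned -0.0369 to 0.147 for Alas2 and -0.0949 to 0.00684 for Hbb-b1 in both sexes; -0.14 to 0.0634 for Hbb-b1, -0.182 to 0.0611 for Lgals5 and -0.166 to 0.008 for Slc4a1 in males; and -0.114 to 0.00819 for Hbb-b1, -0.154 to 0.0334 for Slc4a1 and -0.36 to 0.0015 for Alas2 in females. The 2-day sex difference of the effect spanned -0.0583 to 0.141 for Slc4a1 and -0.113 to 0.0904 for Hbb-b1, and untreated females minus males -0.199 to 0.0957 for Alas2 and -0.115 to 0.0842 for Slc4a1. PDTC differences at 2 weeks spanned -0.0503 to 0.0176 for Slc4a1 and -0.0949 to 0.017 for Hbb-b1 in both sexes and -0.0484 to 0.286 for Alas2 in females. In adults Hbb-b1 spanned -0.328 to 0.0127 in both sexes, -0.149 to 0.532 in females and -0.453 to 0.124 for untreated females minus males. Its 2-week minus 2-day effect spanned -0.0644 to 0.0581 and its adult minus 2-week effect -0.291 to 0.0495.

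Slc4a1 in adults against 2 weeks passed in untreated rats without adult untreated male 1 (0.338, adjusted p = 0.0331) or female 3 (0.324, adjusted p = 0.0467). In PDTC rats it passed without background correction (0.286), with the deposited values (0.267), with array weights (0.39), in 1 fit (0.374) and without any 1 of 5 arrays (0.416 to 0.478). All-probe counts moved by over 1.5 times for 2 weeks against 2 days in untreated rats (5059, or 2722 with arrays scaled to 1 median), adults against 2 weeks in untreated rats (8393, or 715 with slide as a fixed term) and PDTC at 2 days (0, or 373 with array weights and up to 258 without 1 array). In 1 fit of all 59 arrays the adult PDTC counts of 0 became 52 in both sexes, 255 in males, 138 in females and 377 for the sex difference. The adult count of untreated females against males was 157, and 42, 237 or 980 under other settings. Slide could not be fitted as a fixed term for adults against 2 days or for adults against 2 weeks in PDTC rats. Signal near background limits Alas2 and Lgals5 in adults.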
